A study of Mus musculus with 4 samples.

Results

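The genes of innate-like T cell selection compared here were *Slamf1*, *Slamf6*, *Ly9*, *Cd84*, *Cd48* and *Cd244*, which encode receptors of the SLAM (signalling lymphocyte activation molecule) family, *Sh2d1a*, which encodes the adaptor SAP, *Cd1d1*, which encodes the lipid-presenting molecule CD1d, and *Zbtb16*, which encodes the transcription factor PLZF. They were chosen by symbol for their known roles, as 9 of the 24421 genes listed, and all 9 were found. RNA was sequenced from sorted CD69+DP thymocytes, the CD4+CD8+ (double-positive, DP) cells that carry the activation marker CD69. The 2 control samples came from Foxa1fl/fl Foxa2fl/fl mice without Cre, labelled CD4Cre-, and the 2 Foxa1/2cKO samples came from Foxa1fl/fl Foxa2fl/fl CD4Cre+ mice, in which Cre is driven by *Cd4* regulatory sequences. All mice were on a C57BL/6 background and 6 weeks old, and all carried both floxed alleles, so an effect of Cre itself cannot be told apart from the loss of Foxa1 and Foxa2. The comparison addressed how these genes are transcribed in CD69+DP cells that lack both factors.

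Most T cells are selected by peptide bound to MHC on thymic epithelium. Innate-like T cells such as invariant NKT (iNKT) cells are instead selected by DP thymocytes, which present lipids on CD1d to one another. In that contact SLAM receptors on both cells bind each other, most of them homophilically, SAP couples their tails to the kinase Fyn, and the selected cells switch on PLZF, the factor that drives the innate-like effector programme. CD48 differs from the other receptors in being held by a lipid anchor, and it binds CD244 and CD2.

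The feature through which SLAM receptors recruit SAP is the immunoreceptor tyrosine-based switch motif of the tail. The motif was searched in frame in mouse coding sequences (GENCODE vM21) as a threonine codon, any codon, a tyrosine codon, any 2 codons, and a valine or isoleucine codon. *Slamf1*, *Slamf6*, *Ly9* and *Cd84* each held 2 matches, which are shown because they are what these receptors share. Each is written 5' to 3' with 2 flanking codons on either side, the 6 matching codons in capitals, and codons counted from 1 at the start codon.
Slamf1, codons 286 to 291: agccttACTATTTATGCCCAAGTAcagaaa
Slamf1, codons 333 to 338: cccaccACAGTTTATGCCAGTGTGacactg
Slamf6, codons 293 to 298: gggaacACTGTGTATGCACAAGTCactcgt
Slamf6, codons 317 to 322: tccatgACAATTTACTCCATAGTTaatcat
Ly9, codons 585 to 590: gcaatcACTCCATATGATAAAGTGgatggg
Ly9, codons 623 to 628: tcaaatACAATCTACTGCTCTGTGcagaag
Cd84, codons 263 to 268: aagaaaACAGTATATGCTGTAGTTtcaaga
Cd84, codons 298 to 303: gtgaccACCATTTATTCCTCAGTGcagctt

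All 8 lay towards the 3' end of the coding sequence, ending between 5 codons (the second match of *Slamf1*) and 64 codons (the first of *Ly9*) before its last codon. *Cd244* held 4 matches in 397 codons. *Cd48* held 1, at codons 105 to 110 of 240, which is 130 codons from the end of a protein that has no cytoplasmic tail. Of 20469 coding sequences, 8.05% held at least 1 match and 0.620% held 2 or more. A match is a stretch of letters and was not tested as a binding site.

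Reads on genes, recovered from the deposited FPKM (fragments per kilobase of transcript, scaled to library size), summed to 10999968 to 15313093 per sample. The cells had the markers of their sort, with *Cd4* at 342 to 446 FPKM, *Cd8a* at 475 to 666, *Cd8b1* at 592 to 974 and *Cd69* at 103 to 121. *Foxa1* and *Foxa2* were listed at 0 in all 4 samples, so the genotypes could not be checked from their expression. Sample 2 of the Foxa1/2cKO group (Foxa1/2cKO 2) stood apart. The SD over genes of the log2 difference between samples was 0.198 for the controls and 0.405 for the Foxa1/2cKO pair, and the first principal component, with 65.2% of the variance, put Foxa1/2cKO 2 at 28.5 and the other samples between -10.97 and -7.42. The log2 differences of the 7 tested genes and the medians of the gene lists are therefore also given without that sample. The samples came from different mice. With 2 samples a group the smallest two-sided p of an exact permutation test is 0.333, so single genes were tested in the limma model over all genes.

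The 9 genes spanned a wide range of levels in control CD69+DP cells. *Sh2d1a* was the highest, at 146 ± 3.71 FPKM (SD, n = 2), above 98.6% of all listed genes. *Cd48* (48.8 ± 0.974), *Slamf6* (46.3 ± 0.721) and *Ly9* (46.0 ± 1.83) followed, then *Cd84* (29.98 ± 0.975), *Slamf1* (26.7 ± 0.388) and *Cd1d1* (25.5 ± 0.852), all in FPKM, which is scaled per gene length. *Zbtb16* and *Cd244* were far lower, at 0.525 ± 0.0704 and 0.245 ± 0.181 FPKM. Over all 4 samples the range of *Sh2d1a* did not overlap that of *Cd48*, with a ratio of control means of 2.99, nor did *Ly9* overlap *Cd84* (1.53) or *Cd1d1* overlap *Zbtb16* (48.5). The ranges of the other neighbours in this order overlapped over the 4 samples, although *Slamf1* was above *Cd1d1* and *Zbtb16* above *Cd244* within each of the 4. The mRNAs of 5 SLAM receptors, SAP and CD1d each had at least 419 reads in every sample, from 419 reads for *Cd1d1* in Foxa1/2cKO 1 to 2871 reads for *Cd84* in control 1, whereas *Zbtb16* had 22 to 49 reads and *Cd244* 6 to 21.

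**Figure D1:**
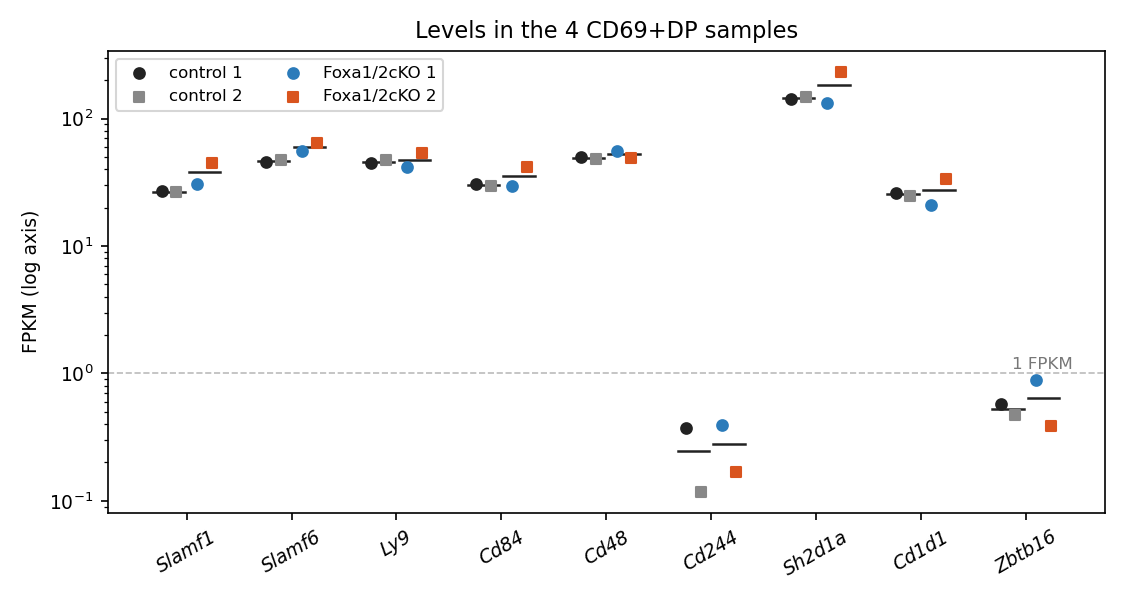
FPKM of the 9 genes in each sample on a log axis, with 1 point per sample, a short line at each group's mean and a dashed line at 1 FPKM. *Sh2d1a* sits highest, from 133 to 233 FPKM, and *Zbtb16* and *Cd244* lie below 1 FPKM in all 4 samples.

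Of the 7 genes that passed the filter on low values (1 FPKM or more in 2 samples or more), none had an adjusted p under 0.05 with limma and Benjamini-Hochberg adjustment, where 0.00928% of the 10776 genes tested did. At an unadjusted p under 0.05 there was 1 of 7, *Slamf6*, beside 4.55% of all genes (2.39% higher and 2.15% lower in Foxa1/2cKO), and limma-voom on recovered reads gave the same counts of 0 and 1. For 2 of the 7, *Slamf1* and *Slamf6*, the groups did not overlap, beside 36.7% of all genes. Both had their Foxa1/2cKO values above the controls, as did 18.9% of all genes, and none had them below, as did 17.8%. The estimates of all 7 were above 0, as were those of 5523 of the 10776 genes tested. The median log2 fold change of the 7 was 0.21, beside 0.01 over all genes tested. Without Foxa1/2cKO 2 that median was -0.03, and without Foxa1/2cKO 1 it was 0.45, so its direction rests on Foxa1/2cKO 2. For the 5 tested SLAM receptors alone the median was 0.21, or 0.19 without Foxa1/2cKO 2.

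Among the receptors, *Slamf6* (Ly108), whose homophilic contacts between DP cells act with those of SLAMF1 in iNKT selection, had 45.8 and 46.9 FPKM in the controls and 55.2 and 64.0 in the Foxa1/2cKO samples. Both Foxa1/2cKO values were above both controls, and the controls lay closer to each other than to either of them. On the log2(FPKM + 1) scale the difference was 0.35 (SE 0.10, 95% interval 0.08 to 0.63), a fold of 1.28, with an unadjusted limma p of 0.0217 and a Benjamini-Hochberg adjusted p of 0.863. It was 0.25 without Foxa1/2cKO 2 and 0.46 without Foxa1/2cKO 1.

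*Slamf1* (SLAM, CD150), the founding member of the family, had 27.0 and 26.4 FPKM in the controls and 30.8 and 44.8 in the Foxa1/2cKO samples. The groups did not overlap, but most of the difference came from 1 sample. The log2 difference was 0.46 (SE 0.19, 95% interval -0.04 to 0.96, limma p 0.0631, Benjamini-Hochberg adjusted p 0.863), and it was 0.20 without Foxa1/2cKO 2. Over the alternatives that keep all 4 samples the unadjusted p of *Slamf1* ranged from 0.0377 to 0.0774 and that of *Slamf6* from 0.0132 to 0.0402, and both had adjusted p from 0.833 to 0.998.

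*Ly9* (CD229) and *Cd84*, homophilic receptors that also signal through SAP, had overlapping groups. *Ly9* had 44.7 and 47.3 FPKM in the controls and 41.5 and 53.6 in the Foxa1/2cKO samples, which lay on either side of the controls, with a log2 difference of 0.04 (95% interval -0.34 to 0.41). *Cd84* had 30.7 and 29.3 FPKM in the controls and 29.4 and 41.4 in the Foxa1/2cKO samples, so that Foxa1/2cKO 1 lay within the range of the controls. Its log2 difference was 0.21 (95% interval -0.25 to 0.68). *Cd48*, which encodes the lipid-anchored ligand of CD244 and CD2, had 49.5 and 48.1 FPKM in the controls and 55.9 and 48.8 in the Foxa1/2cKO samples. Of the 7 tested genes it was the only one in which Foxa1/2cKO 1 was above Foxa1/2cKO 2, and its log2 difference was 0.10 (95% interval -0.17 to 0.36). These intervals include 0 and do not show that the groups are equal.

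*Sh2d1a*, which lies on the X chromosome, had 143 and 149 FPKM in the controls and 133 and 233 in the Foxa1/2cKO samples. Those of Foxa1/2cKO were thus the lowest and the highest of the 4. The log2 difference between them was 0.81, larger than in 99.1% of the genes tested, and the group difference was 0.27 with a 95% interval of -0.45 to 0.99. *Cd1d1* likewise had Foxa1/2cKO 1 lowest and Foxa1/2cKO 2 highest, with 26.1 and 24.9 FPKM in the controls and 21.1 and 33.6 in the Foxa1/2cKO samples. Its group difference was 0.06 on the log2 scale (95% interval -0.54 to 0.66). Of the 50-base stretches of the *Cd1d1* transcript, 25.8% also occur in its paralog *Cd1d2*, so reads could be split between them and the level of *Cd1d1* is uncertain. *Cd1d2* had 5.26 and 4.80 FPKM in the controls and 3.95 and 7.68 in the Foxa1/2cKO samples, again with Foxa1/2cKO 1 lowest and Foxa1/2cKO 2 highest.

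*Zbtb16* and *Cd244* were below the filter. *Zbtb16* had 0.575 and 0.475 FPKM in the controls and 0.887 and 0.388 in the Foxa1/2cKO samples. *Cd244*, a receptor known best from NK cells, had 0.373 and 0.118 FPKM in the controls and 0.394 and 0.168 in the Foxa1/2cKO samples. Both were above the 0.0392 to 0.0740 FPKM that 3 reads would give, and both had overlapping groups. Fitted without the filter over 16069 genes, limma gave log2 differences of 0.09 (Benjamini-Hochberg adjusted p 0.929) for *Zbtb16* and 0.04 (adjusted p 0.959) for *Cd244*. With at most 49 reads per sample, on a log2(FPKM + 1) scale that compresses values under 1 FPKM, neither fit shows that the groups are equal.

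**Figure D2:**
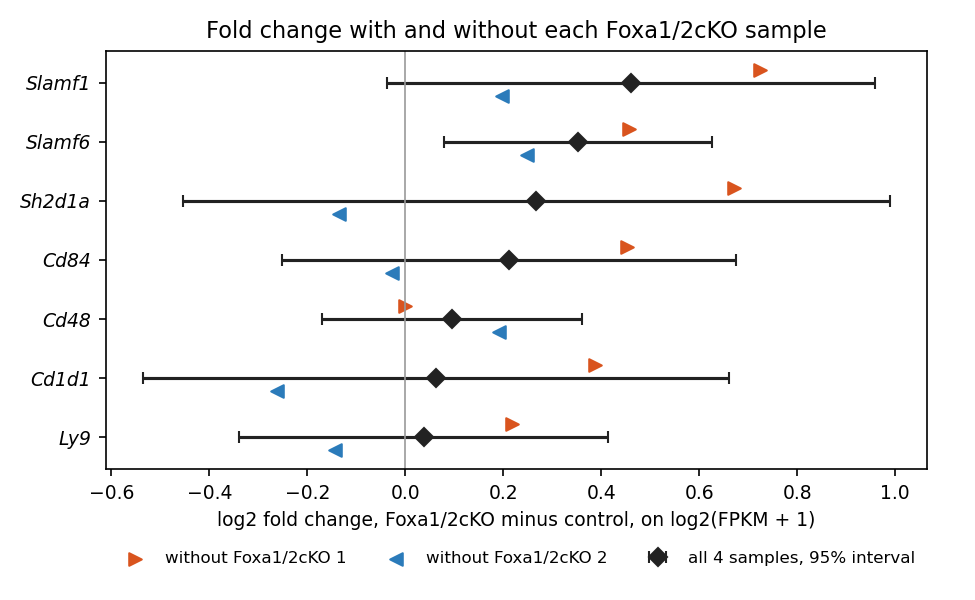
Log2 fold change of each of the 7 tested genes, Foxa1/2cKO against control on log2(FPKM + 1), with its 95% limma interval (black) and the estimates without Foxa1/2cKO 1 (orange) or Foxa1/2cKO 2 (blue). The interval excludes 0 for *Slamf6* (0.08 to 0.63) and includes it for the other 6 genes.

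The 2 Foxa1/2cKO samples differed from each other more than the controls did in all 7 tested genes. Over all genes tested the SD of this difference was also larger, 0.405 against 0.198 in the controls. Foxa1/2cKO 2 was the highest of the 4 samples in 6 of the 7 tested genes (85.7%), where it was in 40.5% of all genes tested. Foxa1/2cKO 1 was the lowest in 3 of the 7 (42.9%, beside 29.2% of all genes). The log2 difference of Foxa1/2cKO 2 from Foxa1/2cKO 1 was 0.53 in *Slamf1*, 0.48 in *Cd84*, 0.65 in *Cd1d1*, 0.36 in *Ly9* and 0.21 in *Slamf6*. It was -0.19 in *Cd48*. Without Foxa1/2cKO 2 the estimates of *Ly9* (-0.14), *Cd84* (-0.03), *Sh2d1a* (-0.14) and *Cd1d1* (-0.26) were below 0, while those of *Slamf1*, *Slamf6* and *Cd48* stayed above it.

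Lists of cell type markers differed in the same sample. The summed FPKM of the 10 DP identity markers, all measured, was 2591 and 2628 in the controls and 2668 and 3335 in the Foxa1/2cKO samples, and Foxa1/2cKO 2 was the highest of the 4 in 7 of 10. The sum of the 8 mature single-positive markers was 386 and 421 in the controls and 460 and 307 in the Foxa1/2cKO samples, and Foxa1/2cKO 2 was the lowest of the 4 in 6 of 8. In bulk RNA, fewer cells of a type and less RNA per cell cannot be told apart, and the part of these markers in the values of the SLAM genes was not tested. *Zbtb16*, *Cd244* and *Slamf7* were higher in control 1 and Foxa1/2cKO 1 than in the other sample of each group. So were the sums of the 7 B cell markers (78.4 and 52.1 FPKM in the controls, 107 and 56.0 in the Foxa1/2cKO samples) and of the 10 myeloid and dendritic cell markers (42.1, 36.5, 45.5 and 28.2 in the same order), whose part in these low values was not tested. No gene of these 2 lists was at 0 in all samples. Summed NK cell markers were 24.9 to 28.8 FPKM with *Klra8* at 0, gamma-delta T cell markers 6.17 to 13.9, thymic epithelial markers 4.89 to 7.61, and erythroid markers 0.608 to 2.67 with 4 of 6 at 0.

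The promoters of *Slamf1* and *Slamf6*, the genes whose groups did not overlap, were read from RefSeq (GRCm38.p6), with 250 bases upstream of the start that the RefSeq promoter table uses, on the plus strand. They are shown because Foxa1 and Foxa2 are forkhead factors and E-box factors such as HEB act in DP cells. Capitals mark the E-box letters CANNTG.
Slamf1, chr1:171766882-171767131: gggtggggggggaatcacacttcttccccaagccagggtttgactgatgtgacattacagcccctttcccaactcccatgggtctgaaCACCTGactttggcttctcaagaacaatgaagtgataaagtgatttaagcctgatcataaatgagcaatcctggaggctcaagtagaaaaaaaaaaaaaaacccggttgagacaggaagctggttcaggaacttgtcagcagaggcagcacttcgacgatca
Slamf6, chr1:171917212-171917461: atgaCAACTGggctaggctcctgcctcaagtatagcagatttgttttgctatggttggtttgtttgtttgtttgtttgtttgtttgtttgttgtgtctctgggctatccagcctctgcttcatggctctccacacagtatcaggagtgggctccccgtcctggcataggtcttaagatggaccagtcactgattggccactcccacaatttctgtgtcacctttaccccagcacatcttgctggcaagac

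The forkhead letters TGTTTAC, searched on both strands, were absent from the 5 promoters given for these genes (*Slamf1*, *Slamf6*, *Cd84*, *Cd48* and *Cd244*), and were in 3.17% of 32851 promoters of the same length. CANNTG, which reads the same on both strands and does not overlap TGTTTAC in these windows, occurred in all 5, with 2 matches in *Cd244* and 1 in each of the others. It was in 66.2% of all promoters, with a median of 1 match. For *Cd48* and *Cd244* the table's start lies well inside the annotated gene, so these windows belong to another start than the first base of the gene. The *Slamf1* window ends at the first base of its gene, and the *Slamf6* window a few bases past it. The windows hold no information on distal sites, and a missing match says only that these letters are not in them. Only the exact letters TGTTTAC were searched. The *Slamf6* window holds a run of tttg repeats, which include the similar letters TGTTTGT, and such variants were not counted.

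The 6 receptor genes lie together on chromosome 1, over 390 kb from *Cd244* (171558718 to 171585316) through *Ly9* (171588613 to 171607410), *Cd48* (171681245 to 171705258), *Slamf1* (171767131 to 171801184) and *Cd84* (171839697 to 171890718) to *Slamf6* (171917458 to 171948958). *Sh2d1a* (X, 42502565 to 42522097), *Cd1d1* (chromosome 3, 86995834 to 87012358) and *Zbtb16* (chromosome 9, 48651797 to 48836225) lie elsewhere. Between the outermost receptor genes, 6 genes were tested, 5 of them receptors of the list and the other *Slamf7*. All 6 estimates were above 0, beside 5523 of the 10776 genes tested, with a median of 0.22 on the log2 scale. Within 500 kb on either side, 24 genes were tested, of which 10 had estimates above 0 and 14 below, with a median of -0.01 and a range of -0.29 to 0.21. Without Foxa1/2cKO 2 the medians were 0.19 inside and -0.08 outside, and the difference between them was not tested. Of the 24 flanking genes, 3 lay above and 4 below both controls in both Foxa1/2cKO samples, beside 18.9% and 17.8% of all genes. None of the 24 had an unadjusted limma p under 0.05. Those with the smallest p were *Pigm*, of glycolipid anchor synthesis, with 13.0 and 13.7 FPKM in the controls and 14.4 and 16.9 in the Foxa1/2cKO samples, *Copa*, a coat protein of Golgi transport, with a log2 difference of 0.12, and *Igsf8*, an immunoglobulin superfamily protein, with -0.29. Without Foxa1/2cKO 2 the log2 differences were 0.10 for *Pigm*, 0.11 for *Copa* and -0.02 for *Igsf8*, and the flanking genes ranged from -0.28 to 0.47. Inside the cluster, *Ly9* and *Cd84* were then below 0.

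**Figure D3:**
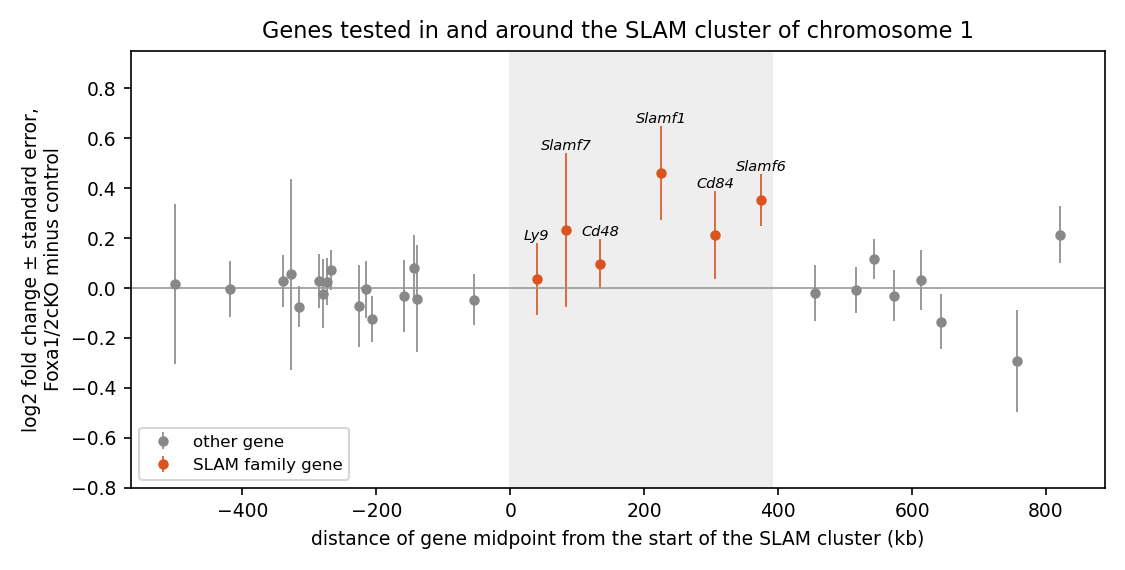
Log2 fold change of genes tested in and around the SLAM cluster of chromosome 1, with bars of 1 standard error, plotted by the distance in kb of the gene's midpoint from the start of the cluster (grey band). The 6 genes tested inside the cluster all lie above 0, and the 24 flanking genes lie between -0.29 and 0.21.

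The genes that act with SLAM receptors were compared next, and intervals that include 0 do not show that the groups are equal. Of 13 signalling partners of SLAM and SAP, 11 were tested and none had an unadjusted limma p under 0.05. In 2 of the 11 both Foxa1/2cKO values lay above both controls and in none below, beside 18.9% and 17.8% of all genes. The median log2 difference of the 11 was 0.11, or -0.03 without Foxa1/2cKO 2. *Fyn*, the kinase bound by SAP, had 99.3 and 102 FPKM in the controls and 94.96 and 108 in the Foxa1/2cKO samples, with a 95% interval of -0.25 to 0.26 for the log2 difference. *Prkcq* (protein kinase C theta) had 117 and 113 FPKM in the controls and 103 and 158 in the Foxa1/2cKO samples. Foxa1/2cKO 1 was lowest and Foxa1/2cKO 2 highest, as in *Sh2d1a*, and the 95% interval of the log2 difference was -0.41 to 0.71. Of the 11 partners, Foxa1/2cKO 2 was the highest of the 4 samples in 10 (90.9%, beside 40.5% of all genes). Foxa1/2cKO 1 was the lowest in 5 (45.5%, beside 29.2%). The smallest p were those of *Bcl10* (0.188, log2 difference 0.18) and *Malt1* (0.296, 0.11), partners in the complex that activates NF-kB, both above the controls in both Foxa1/2cKO samples, and of the adaptor *Nck1* (0.319, 0.20). *Bcl10* was 0.06, *Malt1* 0.08 and *Nck1* -0.03 on the log2 scale without Foxa1/2cKO 2.

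Of the other family members, *Slamf7* had 1.73 and 1.22 FPKM in the controls and 2.77 and 1.22 in the Foxa1/2cKO samples. *Slamf8* reached at most 0.227 FPKM. *Slamf9* had 0.583 and 0.129 FPKM in the controls and 1.29 and 0.945 in the Foxa1/2cKO samples. The smallest whole reads that fit these values were 1 to 8 per sample, and the true reads could be a multiple of them. *Cd2*, the related receptor that binds CD48, was high, with 442 and 412 FPKM in the controls and 390 and 518 in the Foxa1/2cKO samples.

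Of 21 genes of lipid antigen presentation by CD1d, 20 were tested and none had an unadjusted limma p under 0.05, with 3 above and 4 below both controls and a median log2 difference of -0.01, or 0.04 without Foxa1/2cKO 2. The groups of these 7 genes did not overlap, beside 36.7% of all genes. *B2m*, the light chain of CD1d, had 505 and 480 FPKM in the controls and 655 and 443 in the Foxa1/2cKO samples, with Foxa1/2cKO 1 highest and Foxa1/2cKO 2 lowest, opposite to *Cd1d1*. *Ctsl*, the lysosomal protease cathepsin L, had 39.3 and 35.8 FPKM in the controls and 41.8 and 65.7 in the Foxa1/2cKO samples (log2 difference 0.47, limma p 0.0957). *Npc1*, a lysosomal cholesterol transporter, had a log2 difference of 0.18, and *Pdia3*, a chaperone of CD1d folding, of -0.24, with limma p of 0.0981 and 0.0885. Benjamini-Hochberg adjusted p was 0.863 for all 3 genes. The log2 differences without Foxa1/2cKO 2 were 0.15 for *Ctsl*, 0.15 for *Npc1* and -0.13 for *Pdia3*.

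None of the 20 regulators of innate-like T cell development, all tested, had an unadjusted limma p under 0.05. The median log2 difference was -0.04, or -0.13 without Foxa1/2cKO 2. In 1 gene both Foxa1/2cKO values lay above the controls and in 4 below, beside 18.9% and 17.8% of all genes. Foxa1/2cKO 2 was the highest of the 4 samples in 12 genes (60%, beside 40.5% of all genes) and Foxa1/2cKO 1 the lowest in 11 (55%, beside 29.2%). *Egr2*, which induces *Zbtb16* in iNKT cells, had 38.9 and 30.1 FPKM in the controls and 28.5 and 46.7 in the Foxa1/2cKO samples. *Runx1*, needed for iNKT cells, had 27.3 and 27.9 FPKM in the controls and 24.003 and 24.7 in the Foxa1/2cKO samples, both below the controls by more than either pair differed (log2 difference -0.17, limma p 0.0968). *Tcf12*, which encodes the E protein HEB, had 80.9 and 80.7 FPKM in the controls and 87.9 and 103 in the Foxa1/2cKO samples (0.23, limma p 0.0863). *Ezh2*, a histone methyltransferase, had 85.2 and 87.6 FPKM in the controls and 78.5 and 58.4 in the Foxa1/2cKO samples (-0.35, limma p 0.0839). With Foxa1/2cKO 2 left out, the log2 differences were -0.19 for *Runx1*, 0.12 for *Tcf12* and -0.14 for *Ezh2*.

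Of 20 effector genes of innate-like T cells, 13 were tested and none had an unadjusted limma p under 0.05. In 1 of the 13 both Foxa1/2cKO values lay above both controls and in none below, beside 18.9% and 17.8% of all genes. The median log2 difference of the 13 was 0.05, or 0.23 without Foxa1/2cKO 2. Foxa1/2cKO 1 was the highest of the 4 samples in 9 of 13 genes, beside 23.4% of all genes, and Foxa1/2cKO 2 the lowest in 7, beside 33.3%. *Il2rb*, a subunit of the receptor for IL-2 and IL-15, had 21.2 and 19.6 FPKM in the controls and 24.9 and 11 in the Foxa1/2cKO samples. The chemokine gene *Xcl1* had the same order, with 20.8, 19.1, 23.2 and 7.18 FPKM. *Tbx21*, which encodes T-bet, had 0.969 and 0.635 FPKM in the controls and 1.09 and 0.283 in the Foxa1/2cKO samples. *Klrb1c* (NK1.1) had 0.965 and 0.644 FPKM in the controls and 1.34 and 1.06 in the Foxa1/2cKO samples, and the chemokine gene *Ccl5* had 5.03, 2.64, 5.23 and 4.24. The order of the samples in *Tbx21* and *Il2rb* had Foxa1/2cKO 1 highest and Foxa1/2cKO 2 lowest, as in the sum of the mature single-positive markers, whose part in these values was not tested.

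**Figure D4:**
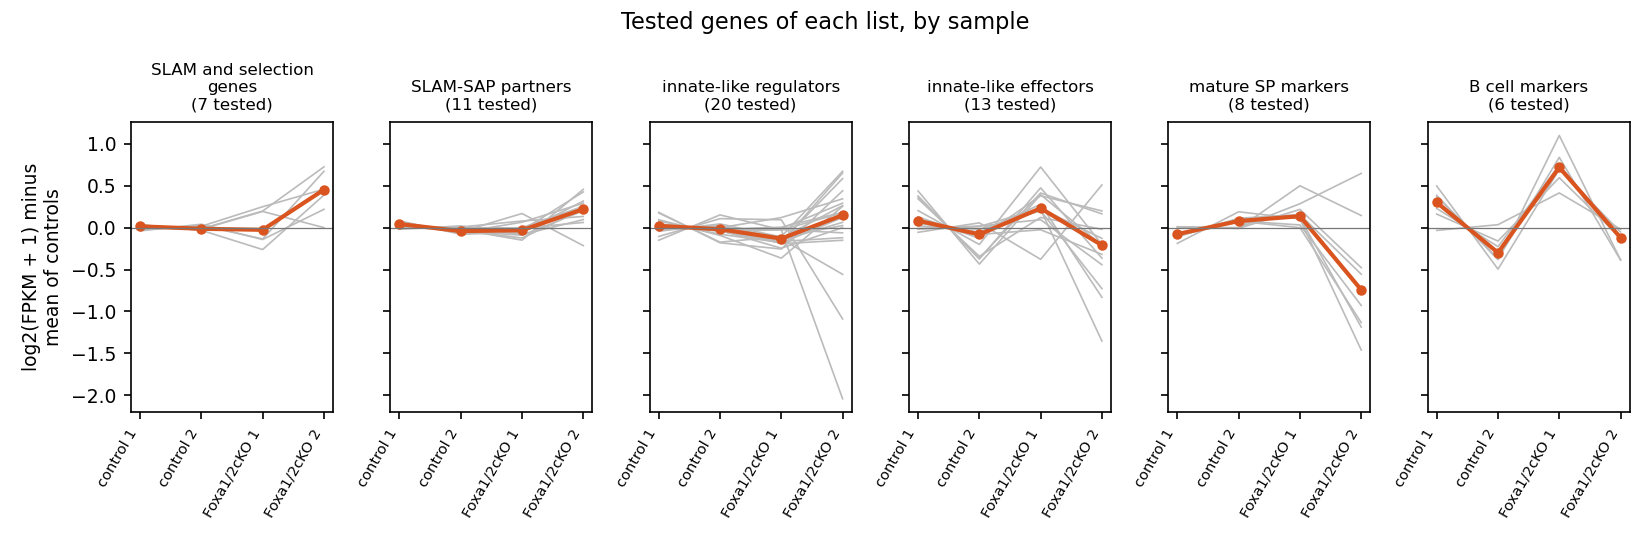
Log2(FPKM + 1) minus the mean of the controls in each sample, for the tested genes of 6 lists (grey lines, 1 per gene) and their median (orange). In Foxa1/2cKO 2 the median is 0.45 for the SLAM and selection genes, 0.22 for SLAM and SAP partners, -0.21 for effector genes and -0.74 for mature single-positive (SP) markers, and the B cell markers peak in Foxa1/2cKO 1 at 0.72.

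By Euclidean distance between profiles of log2(FPKM + 1) centred over the 4 samples, the gene most like *Slamf1* among 10775 was *Themis*, a regulator of T cell receptor signalling in thymocytes. *Themis* had 77.7 and 76.6 FPKM in the controls and 89.4 and 127 in the Foxa1/2cKO samples, at a distance of 0.0175. *Ephx1* (0.0511) and *S100a10* (0.0658) came next, and 13 genes lay within 0.1. For *Slamf6* the nearest were *2810474O19Rik* (0.0210), *Clk4* (0.0270) and *Crebrf* (0.0284), and 71 genes lay within 0.1. For *Cd1d1* they were the agouti gene *a* (0.0238), *Rgs14* (0.0259) and *Pou6f1* (0.0356), and 51 genes lay within 0.1. These likenesses rest on 4 samples, which share the contrast between Foxa1/2cKO 2 and the rest.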

How the data were processed

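RNA from CD69+DP thymocytes was sequenced in 2 control and 2 Foxa1/2cKO samples. The authors' alignment was to mm10, and HTSeq in union mode gave counts per RefSeq gene. The submitters' notes also name TopHat, Picard and DESeq2. The deposited values are FPKM, and the step from reads to FPKM is not given in the sources used here. Whole reads were recovered, up to a divisor common to a gene, from the steps of the FPKM for 99.99% of the 16069 genes above 0 (tolerance 0.02 reads), giving 10999968 to 15313093 reads per sample. Where the smallest solution implied a gene much shorter than its annotation, a multiple of it was used (5.34% of genes with more than 50 reads). The summed reads exceeded the library totals that the FPKM imply (10796528 to 14968316) in every sample, and the reason was not tested. Intervals cover the spread between samples, and the limit of 3 reads covers counting error only.

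Genes reaching 1 FPKM in 2 or more samples were tested with limma 3.58.1 in R 4.3.3 on log2(FPKM + 1) with a mean-variance trend, as planned, since the values were not counts. Benjamini-Hochberg adjustment of p-values was over all genes tested. Replicates came from different mice. Alternatives were a pseudocount of 0.1, no filter, upper-quartile scaling, a replicate block, limma-voom on recovered reads, and each sample left out. In a simulated run, 97.5% of 200 altered genes were recovered, which is a check of the code only. How well the model finds differences as small as those given here, at the spread of the Foxa1/2cKO pair, was not tested. Tables and figures used Python 3.11.15, numpy 2.4.6, pandas 2.3.3 and matplotlib 3.10.9.

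Named are the 9 chosen genes, set genes of each list, the 3 genes of each list with the smallest p, the 3 genes nearest in profile to *Slamf1*, *Slamf6* and *Cd1d1*, and the 3 neighbours of the SLAM cluster with the smallest p. Marker genes are named as checks. The genes and lists were chosen with earlier results of these data known. Gene positions are those of RefSeq on GRCm38.p6, whose chromosomes are those of mm10. Coding sequences and shared stretches came from GENCODE vM21 transcripts paired with RefSeq.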

Additional observations from a re-analysis of the deposited data

How the results depend on the processing

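The direction of the estimates of *Ly9*, *Cd84*, *Cd48*, *Sh2d1a* and *Cd1d1* depended on single samples more than on the settings. *Slamf1* and *Slamf6* stayed above 0 with any 1 sample left out (0.20 to 0.72 and 0.25 to 0.46 on the log2 scale). Over 5 alternatives that keep all 4 samples, all 35 values of the 7 tested genes kept their direction and side of the threshold. Without Foxa1/2cKO 2, *Ly9* was -0.14, *Cd84* -0.03, *Sh2d1a* -0.14 and *Cd1d1* -0.26 on the log2 scale, without Foxa1/2cKO 1 *Cd48* was -0.00054, and without control 1 *Ly9* was -0.0023. With 1 sample left out, the highest values of these genes were 0.22 for *Ly9*, 0.45 for *Cd84*, 0.67 for *Sh2d1a* and 0.39 for *Cd1d1*, all without Foxa1/2cKO 1, and 0.19 for *Cd48*, without Foxa1/2cKO 2. The median of the tested genes ranged from -0.0270 (without Foxa1/2cKO 2) to 0.45 (without Foxa1/2cKO 1) and was 0.0957 without the filter on low values, over 9 genes.

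Over all genes, the adjusted count was 1 in the reported fit, 0 with a pseudocount of 0.1, without the filter, with upper-quartile scaling and with limma-voom, and 1 with the replicate block. The unadjusted count was 490, 802 without the filter, where 16069 genes were tested, and 378 with the block. The labels do not say whether same-numbered samples share a litter or a sort. The correlation of their deviations over genes was -0.0587, and a shared factor was not tested. With the block 2 of the 7 genes passed before adjustment and 0 after it. Leaving out 1 sample gave adjusted counts of 0 to 2559 and unadjusted counts of 73 to 4223, where the lone sample is assumed to vary like the other group. Without Foxa1/2cKO 1 these were 2559 and 4223, and 5 of the 7 genes passed after adjustment (23.7% of all genes) and 6 before it (39.2%). Without Foxa1/2cKO 2 they were 19 and 1885, and 0 of the 7 genes passed after adjustment (0.176% of all genes) and 5 before it (17.5%). Counts without control 1 were 0 and 116, and without control 2 they were 0 and 73. The cause was not tested. *Cd244* and *Zbtb16* rest on at most 49 reads per sample.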
